A study of Mus musculus with 8 samples.

Results

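The complement and coagulation cascades are chains of plasma proteases, cofactors and inhibitors, and hepatocytes make most of them. The genes described here are 41 of them: 22 belong to complement and 19 to coagulation and fibrinolysis. They were taken by name from the 8 arrays, and all 41 had at least 1 probe on each of the 2 array designs, which hold 49826 and 34761 gene names. Both names of a gene were accepted where a design used an older one (C1s is listed in RefSeq as C1s1).

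In complement, the classical and lectin pathways (C1r, C1s, mannose-binding lectins and their proteases) cleave C4 and C2, and the alternative pathway runs through factors B and D with properdin. All of them converge on C3 and then on C5 to C9, which build the membrane attack complex. In coagulation, contact phase and vitamin K dependent proteases lead to thrombin, which turns fibrinogen into fibrin, and plasmin dissolves the clot. Hepatocytes secrete most of these proteins, whereas factor D (Cfd) is best known from adipocytes, properdin (Cfp) from leukocytes and the A subunit of factor XIII (F13a1) from megakaryocytes and macrophages.

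Gene expression was measured in 4 groups of 2 arrays each. Lin- BM cells were lineage-depleted marrow cells of young adult female C57Bl6/J-Tg(UBCGFP)30Scha/J mice, which express eGFP from the ubiquitin C promoter. Such cells were given to young adult male hemophilia A mice (B6;129S4-F8tm1Kaz/J) after liver injury with acetaminophen, and eGFP+ BM-derived hepatocytes were sorted from the perfused liver 1 month and 5 months later. Primary hepatocytes were isolated by liver perfusion as well, from mice whose strain, treatment and age the sources used here do not give. Each array carried a pool of cells of 3 mice, so that p-values measure the spread between pools and hybridizations only. Sorting on eGFP takes donor-derived cells of any type that remain in the hepatocyte fraction, and a lower share of a cell type cannot be told apart from less RNA per cell.

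One slide carried the arrays of Lin- BM cells and of 1-month hepatocytes, another slide of another design those of primary and 5-month hepatocytes. Slide, design and scan day therefore cannot be told apart from group in every other comparison. Between 47.7% and 58.6% of spots were well above background (the scanner software's own test), and arrays at 1 month were the dimmest (75th percentile of the raw signal 75.5 and 89.5, elsewhere 122 to 193). Hepatocyte markers fitted the labels: in each hepatocyte group both arrays detected 10 of 10, and in Lin- BM cells 2 of 10. Markers of cell types other than hepatocytes were detected as well. Of the Kupffer cell markers, 8 of 8 were well above background at 1 month and 7 of 8 at 5 months and in primary hepatocytes. For sinusoidal endothelium the counts were 7, 8 and 8 of 8. In Lin- BM cells both arrays detected 4 of 8 Kupffer cell markers and 6 of 8 endothelial markers. F8, the gene disrupted in the recipients, was detected on both arrays of every hepatocyte group, but where its probe lies relative to the disrupted part is not given in the sources used here, so that it checks no label.

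Promoters are shown for the fibrinogen genes, 2 of which had the highest lower bounds of a rise over Lin- BM cells, and for C9 and F13a1, which departed from the common pattern. Of the 41 genes, 32 matched the RefSeq promoter table (GRCm38.p6), with 35 start sites. The 280 bases run from 250 bases before to 30 bases after the start, on the strand of the gene. Capitals mark matches, on either strand, to the core motif of the hepatocyte factor HNF1 (GTTAAT), to a C/EBP motif (TTGCNNAA) or to an ETS motif (GAGGAAGT). The fibrinogen genes are neighbours on chromosome 3, and Fgb runs opposite to the other two.
Fga, chr3:83025903-83026182, plus strand: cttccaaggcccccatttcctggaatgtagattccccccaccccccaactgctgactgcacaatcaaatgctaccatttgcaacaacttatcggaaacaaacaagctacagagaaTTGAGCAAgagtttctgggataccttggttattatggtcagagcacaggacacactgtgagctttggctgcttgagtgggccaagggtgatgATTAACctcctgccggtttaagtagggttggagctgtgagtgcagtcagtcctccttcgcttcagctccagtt
Fgb, chr3:83049834-83050113, minus strand: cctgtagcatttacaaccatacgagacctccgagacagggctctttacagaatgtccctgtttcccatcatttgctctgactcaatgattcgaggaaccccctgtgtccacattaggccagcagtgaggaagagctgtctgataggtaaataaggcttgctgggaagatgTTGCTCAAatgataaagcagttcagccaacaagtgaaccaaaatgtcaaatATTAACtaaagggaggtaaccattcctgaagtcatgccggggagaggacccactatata
Fgg, chr3:83007474-83007753, plus strand: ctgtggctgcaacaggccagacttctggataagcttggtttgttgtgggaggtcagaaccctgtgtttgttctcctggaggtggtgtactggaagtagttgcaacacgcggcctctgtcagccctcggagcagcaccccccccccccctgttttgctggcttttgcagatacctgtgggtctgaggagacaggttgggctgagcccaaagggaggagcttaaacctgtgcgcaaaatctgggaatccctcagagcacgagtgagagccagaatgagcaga
C9, chr15:6445096-6445375, plus strand: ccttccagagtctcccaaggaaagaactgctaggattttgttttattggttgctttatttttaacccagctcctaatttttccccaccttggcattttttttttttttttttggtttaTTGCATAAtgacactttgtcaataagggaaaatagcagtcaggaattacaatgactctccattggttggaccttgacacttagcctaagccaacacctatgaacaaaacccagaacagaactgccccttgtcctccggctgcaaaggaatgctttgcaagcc
F13a1, chr13:37049184-37049463, minus strand, the start of 2 that holds a match: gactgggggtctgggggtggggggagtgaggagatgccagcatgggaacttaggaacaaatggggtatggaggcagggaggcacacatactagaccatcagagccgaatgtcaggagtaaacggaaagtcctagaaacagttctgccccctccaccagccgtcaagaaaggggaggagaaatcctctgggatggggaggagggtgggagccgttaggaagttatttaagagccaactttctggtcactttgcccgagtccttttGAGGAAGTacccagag

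Fga and Fgb each held 1 HNF1 core motif within 50 bases before the start and 1 C/EBP match farther upstream, Fgg held no match to these letters, and C9 held a C/EBP match. Over the 300 bases that the table gives per start (50 after it), the HNF1 core motif was found in 12 of the 32 genes (37.5%) and in 7.1% of all 32851 promoters. The C/EBP letters were found in 10 of 32 genes (31.2%) and in 10.8% of all promoters. One gene of the 32, F13a1, held the ETS motif (3.12%, against 3.2% of all promoters). An HNF4 motif (CAAAGTCCA) was found in 0 of the 32 genes and in 0.475% of all promoters. TATAAA was found in 5 of them (15.6%, against 13.6%). The core motif was not limited to genes that rose, since Cfp held one at 18 bases before its start.

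Levels below are log2 signals relative to the 75th percentile of the array, so 0 is the level that 25% of the probes exceed. A level belongs to 1 probe and was compared between groups for that probe only. A gene was called when the adjusted p of limma was under 0.05 and the log2 difference was beyond 0.6.

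BM-derived hepatocytes at 1 month were compared with Lin- BM cells, the kind of marrow cell that was given. Of the 41 genes, 38 rose and were called, 2 fell and were called (F13a1 and Cfp), and Cfd did not pass the test. Over all 28535 genes tested, 28.8% were called higher and 26.5% lower. The median log2 difference of the 41 genes was 9.57, that of all genes 0.065. In Lin- BM cells, neither array was well above background for 16 of the 41 genes, so that for these a fold change is only a lower bound. It was taken as the mean of the higher group over the background limit of the lower one, and is given as "at least". With these genes at their bound the median of the 41 was 9.09. All probes of the 11 genes with several probes on this design moved the same way.

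**Figure D1:**
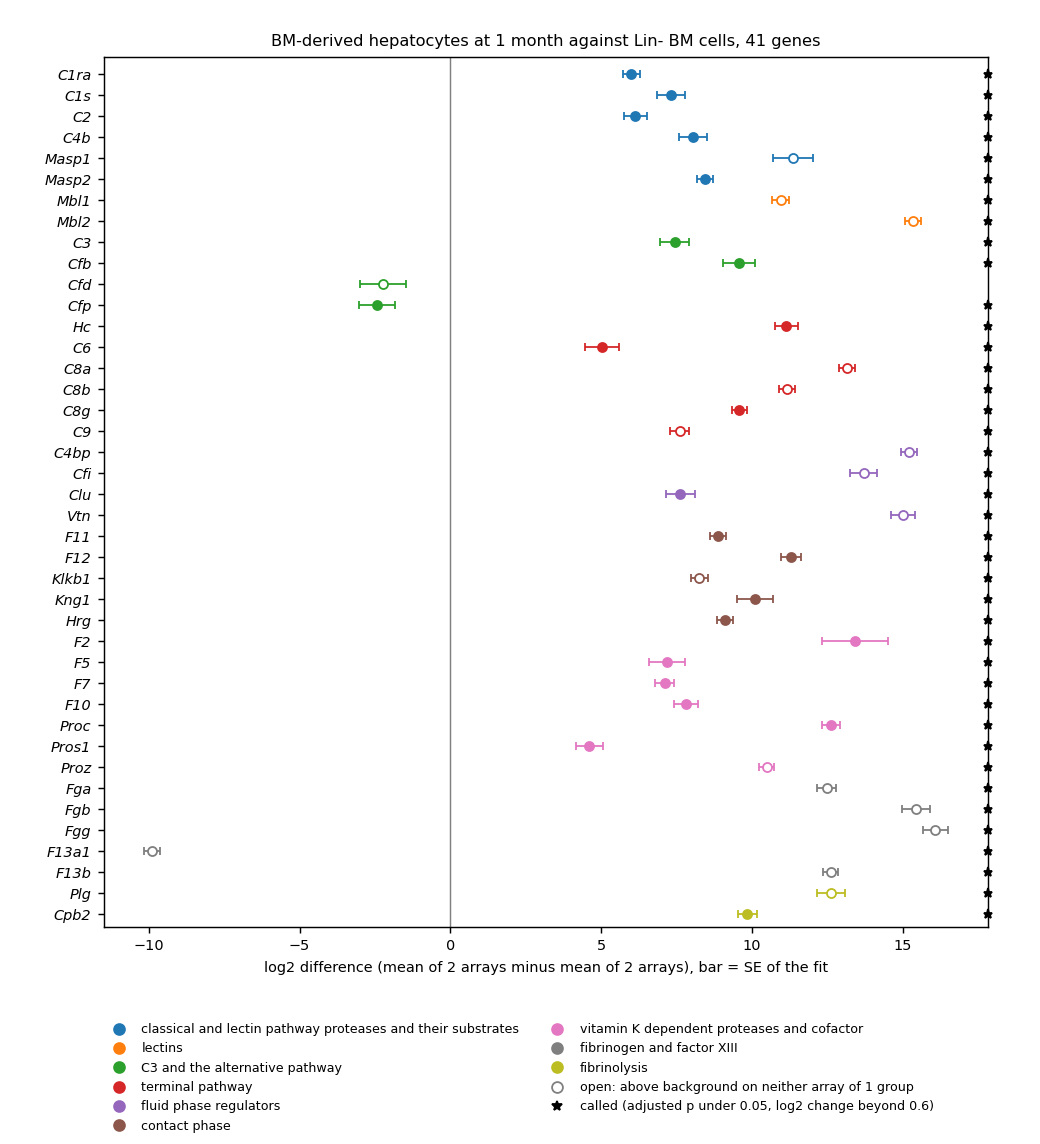
Log2 difference of each of the 41 genes between BM-derived hepatocytes at 1 month and Lin- BM cells (x axis, mean of 2 arrays minus mean of 2 arrays, bars are the SE of the fit), coloured by role, with open points where 1 group was above background on neither array and stars for called genes. Of the 41 points, 38 lie right of 0, from 4.61 to 16.07, and F13a1 lies farthest left, at -9.88.

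All 6 proteases and substrates of the classical and lectin pathways rose. C2, which with C4b forms the C3 convertase of these pathways, was at 0.00 and 0.87 in Lin- BM cells and at 6.74 and 6.40 at 1 month (log2 difference 6.13, SE 0.39, limma adjusted p = 5.31e-04). Masp1, a protease of the lectin pathway, was above background on neither Lin- array (-4.75 and -6.68) and was at 5.81 and 5.47 at 1 month, at least 1126-fold higher. C1ra, C1s and C4b have near-identical copies in the mouse genome (C1rb, C1s2 and C4a), so that signal from a copy cannot be told apart.

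Both mannose-binding lectins, which recognise sugars on microbes and start the lectin pathway, rose from levels that were not above background. Mbl2 was at -6.68 on each Lin- array and at 8.74 and 8.56 at 1 month, at least 9081-fold higher (adjusted p = 6.02e-05). Mbl1 was at -6.10 and -6.47 in Lin- BM cells and at 4.67 and 4.65 at 1 month, at least 569-fold higher. The arrays of each group lay close together for both genes, with no overlap between groups.

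The alternative pathway was split. C3, the hub of complement, was already detected in Lin- BM cells (3.90 and 2.65) and was at 10.80 and 10.62 at 1 month, a log2 difference of 7.43 (SE 0.48, adjusted p = 5.38e-04). Cfb, the protease of the alternative C3 convertase, differed by 9.57 in the same direction. Cfp and Cfd went the other way. Cfp, which stabilises that convertase, was at 3.74 and 4.02 in Lin- BM cells and at 0.60 and 2.29 at 1 month (-2.44, SE 0.60, adjusted p = 0.0236). The Cfp arrays at 1 month lay 1.69 apart, and the call was lost without either Lin- array (adjusted p = 0.0797 and 0.101). Cfd, which cleaves factor B, was at -1.08 and -3.28 in Lin- BM cells and was above background on neither 1-month array (-4.44 and -4.39). Its difference of -2.23 did not pass the test (adjusted p = 0.055). It passed with quantile normalization (-2.48, adjusted p = 0.0412). It also passed with all 8 arrays fitted on shared probes, with or without slide as a block (-2.21, adjusted p = 0.0286). With normexp background correction the sign turned (0.079). Without 1 of the Lin- arrays the difference was -1.13 or -3.34, so that its size depended on which of them was kept.

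All 6 genes of the terminal pathway rose, and C6 rose least (5.03). Hc, which encodes C5, was at -2.28 and -3.15 in Lin- BM cells and at 8.55 and 8.29 at 1 month, a log2 difference of 11.13. C8a, C8b and C9 were above background on neither Lin- array, and their levels at 1 month were at least 2151-fold, 527-fold and 48.0-fold higher. The smallest of these bounds was that of C9, the subunit that forms the pore, at 0.82 and 1.36 at 1 month. C6 was at -4.04 and -2.94 in Lin- BM cells and at 0.98 and 2.09 at 1 month, so its arrays lay over 1 log2 unit apart in both groups.

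The 4 fluid phase regulators rose as well. C4bp, a cofactor in the breakdown of C4b, was at -6.61 and -6.58 in Lin- BM cells and at 8.63 and 8.57 at 1 month, at least 8756-fold higher. Vtn, which keeps the terminal complex out of membranes, was at least 9986-fold higher and Cfi, the protease that inactivates C3b and C4b, at least 6368-fold. Clu, a chaperone expressed in many tissues, was detected in Lin- BM cells (-0.45 and 0.84) and differed by 7.62.

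In coagulation, the 5 contact phase genes, counted with Hrg, rose by at least 169-fold (Klkb1, plasma prekallikrein) to 2490-fold (F12, the factor that starts the intrinsic pathway). The 7 vitamin K dependent factors and cofactors rose. F2, prothrombin, differed by 13.40, yet its Lin- arrays were 3.33 apart (-6.02, not above background, and -2.69), against 9.08 and 9.02 at 1 month. Pros1, the cofactor of activated protein C, rose least of the 7 (4.61), from -1.46 and -0.34 in Lin- BM cells to 3.76 and 3.65 (adjusted p = 0.00157). F10, the protease that makes thrombin, was detected in Lin- BM cells (0.26 and 1.20) and was at 8.69 and 8.37 at 1 month.

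The 3 fibrinogen chains and the B subunit of factor XIII rose, and the A subunit of factor XIII fell. Fgg was at -5.43 and -6.44 in Lin- BM cells and at 10.17 and 10.11 at 1 month, at least 25450-fold higher. Fgb was at -5.90 and -4.67 and at 10.16 and 10.10, at least 25280-fold higher, and Fga at least 1475-fold higher. The 1-month arrays of Fgb and Fgg differed by less than 0.1, so that the error of these differences comes from Lin- values at background. F13a1, the catalytic subunit that cross-links fibrin, was at 4.33 and 4.35 in Lin- BM cells and above background on neither 1-month array (-5.42 and -5.67). It was at least 232-fold lower at 1 month (adjusted p = 6.59e-05), whereas F13b, the carrier subunit made by hepatocytes, was at least 1522-fold higher. Both genes of fibrinolysis rose: Plg, plasminogen, was at least 3702-fold higher, and Cpb2, which slows fibrinolysis, differed by 9.83.

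Markers of marrow cell types moved beside the 3 genes with lower levels. Of the megakaryocyte and platelet markers 8 of 10 fell, of the neutrophil markers 7 of 8, and of the monocyte and macrophage markers 5 of 10 fell while 1 rose. The summed linear level of the megakaryocyte list was 55.6 and 155 in Lin- BM cells and 1.19 and 1.54 at 1 month, with Gp1ba, Gp9, Itga2b and Ppbp above background on neither 1-month array. Of 6 adipocyte markers 3 were tested, and they did not move together. Adipoq was at 0.62 and 2.20 in Lin- BM cells and above background on neither 1-month array, Cidec rose by 3.32, and Pnpla2 was not called (0.68). The adipocyte sum was 14.2 and 12.2 in Lin- BM cells and 19.99 and 14.0 at 1 month. Most of it was Pnpla2, with linear levels of 12.5 and 7.45 in Lin- BM cells and 18.5 and 12.9 at 1 month. The monocyte and macrophage sum was 173 and 71.0 in Lin- BM cells, higher on the array with the lower Cfp. At 1 month it was 10.99 and 29.9, higher on the array with the higher Cfp. The part of these cell types in the levels of F13a1, Cfp and Cfd was not tested.

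Of the other complement genes on a list of 32, 26 were tested, 14 rose and 3 fell. Among the rises were those of Cfhr2 (9.18), a factor H related gene, and of the collectin Colec10 (at least 287-fold). The falls were those of the leukocyte integrins Itgax, Itgb2 and Itgam, which serve as complement receptors. Of the other coagulation genes on a list of 33, 27 were tested, 14 rose and 7 fell. Among the rises were those of the thrombin inhibitors Serpind1 (at least 4076-fold) and Serpinc1 (at least 9969-fold) and of Fgl1 (at least 970-fold), whose 1-month arrays lay 2.93 apart. Among the falls were those of Pf4 (-7.71), a platelet chemokine, Tbxas1 (-4.84), which makes thromboxane, and Vwf (-4.73).

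BM-derived hepatocytes at 5 months were compared with primary hepatocytes on the same slide. Cfd was the only one of the 40 genes tested that was called, and it was higher at 5 months. Over all 19933 genes tested, 0.366% were called higher and 0.186% lower, and at an unadjusted p under 0.05 the count among the 40 was 3. The median log2 difference of the 40 genes was 0.26, against 0.036 over all genes. It was above 0 for 34 of the 40 genes (85.0%), against 53.4% of all genes. F13a1 was left out of the test, since it was not above background on both arrays of either group.

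**Figure D2:**
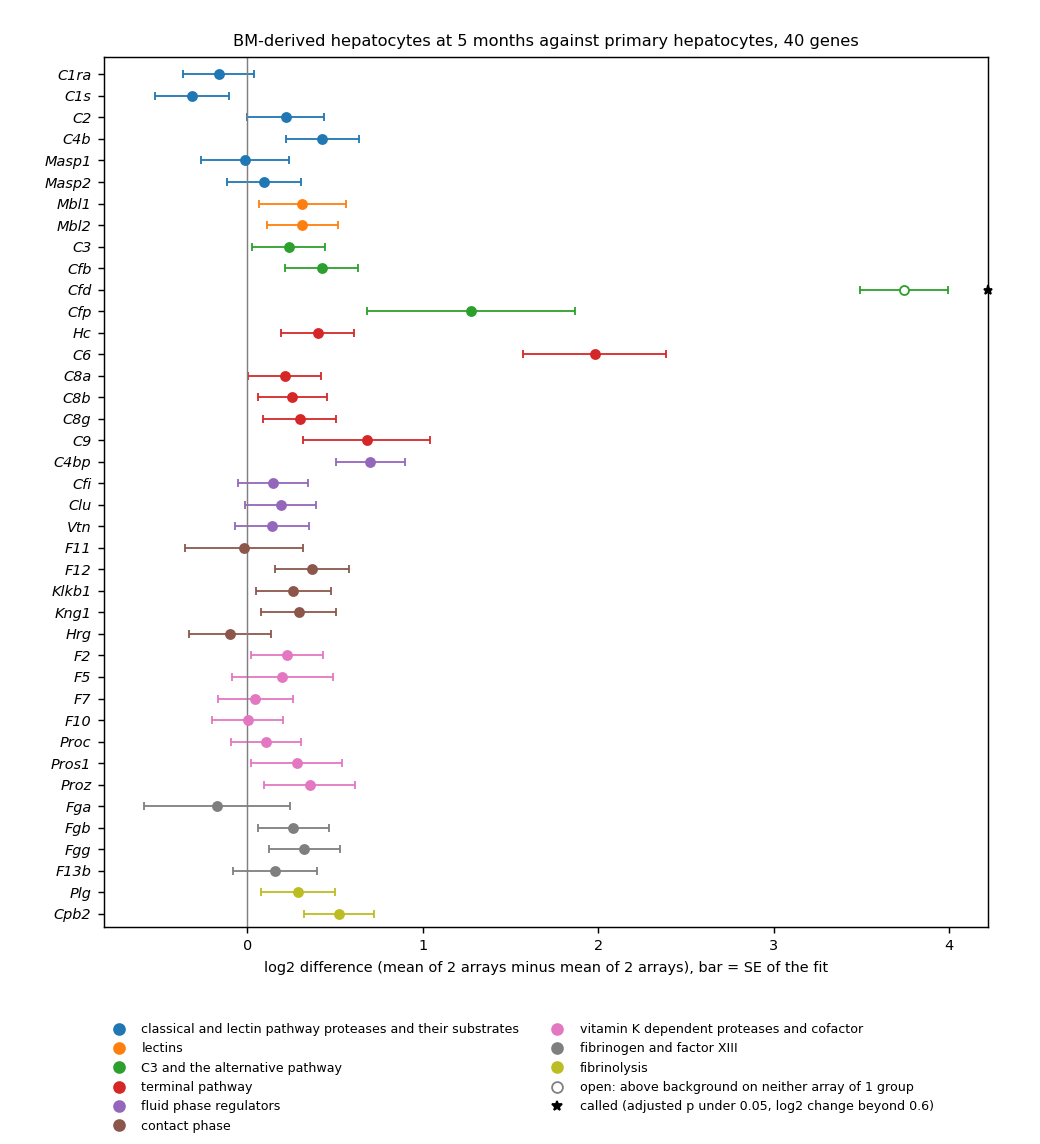
Log2 difference of each of 40 genes between BM-derived hepatocytes at 5 months and primary hepatocytes (x axis, mean of 2 arrays minus mean of 2 arrays, bars are the SE of the fit), coloured by role, with an open point where 1 group was above background on neither array. Cfd lies at 3.74 and is the 1 called gene, C6 and Cfp follow at 1.98 and 1.28, and the other 37 lie between -0.32 and 0.70.

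Cfd was above background on neither primary array (-4.67 and -4.56) and was well above it on both 5-month arrays (-1.09 and -0.65). At 5 months its level was higher at least 10.7-fold (log2 difference 3.74, SE 0.25, limma adjusted p = 0.0278). The call depended on the background and on the probes fitted. With normexp background correction it was lost (1.02, limma adjusted p = 0.0987). It was also lost without the filter on dim probes (adjusted p = 0.0578) and with all 8 arrays on shared probes (adjusted p = 0.0705). Without 1 of the 5-month arrays the difference was 3.96 or 3.52, but such a fit leaves 1 array in that group, so that only its size is given. Of 6 adipocyte markers, Adipoq, Lep, Plin1 and Retn were above background on none of these 4 arrays. Cidec and Pnpla2, which encode proteins of lipid droplets, were above it on all 4, and neither was called (0.24 and -0.13). The summed linear level of the list was 16.4 and 38.9 in primary hepatocytes and 22.7 and 23.7 at 5 months.

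C6, a component of the membrane attack complex, was at 2.44 and 1.39 in primary hepatocytes and at 3.89 and 3.90 at 5 months. Its groups did not overlap, and the difference of 1.98 (SE 0.41) did not pass the test (adjusted p = 0.173). Without 1 of the primary arrays it was 2.51 or 1.45, but such a fit leaves 1 array in that group. Cfp was at 1.07 and 2.73 in primary hepatocytes and at 3.18 and 3.17 at 5 months, a difference of 1.28 that did not pass the test (adjusted p = 0.435). Without the primary array with more Cfp the difference was 2.10, and without the other it was 0.45. The array with the lower Cfp was not the one with the lower C6. C4bp was at 8.10 and 8.12 against 8.85 and 8.76, a difference of 0.70 (adjusted p = 0.268).

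Markers of other cells also differed between these arrays. The summed linear level of the 8 Kupffer cell markers was 62.0 and 85.1 in primary hepatocytes and 121 and 125 at 5 months, with none of 7 tested called. One of them, the macrophage receptor Marco, was at -1.59 and 1.01 in primary hepatocytes and at 4.98 and 3.77 at 5 months (adjusted p = 0.179). The sum of the 9 monocyte and macrophage markers on the design was 16.8 and 79.6 against 43.0 and 45.9, and its higher primary array was the one with more Cfp. In Lin- BM cells, on the other slide, the higher sum was on the array with less Cfp. For the 8 neutrophil markers the sums were 4.91 and 6.14 against 4.08 and 65.8. The part of these cells in the levels of Cfd, C6 and Cfp was not tested.

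The genes below 0 with the largest differences were C1s (-0.32), Fga (-0.17) and C1ra (-0.16), none of which passed the test. Fga differed more between the primary arrays (7.35 and 6.27) than between the groups. Its sign turned with the mean of all its probes (0.41) and without 1 primary array (0.37). By role, the 7 vitamin K dependent factors and cofactors lay between 0.00 and 0.35, the 5 contact phase genes between -0.10 and 0.37, and the 6 terminal pathway genes between 0.21 and 1.98. Of 13 genes with several probes on this design, the probes of 7 had the same sign throughout, and those of C8a, C8g, F5, Fga, Kng1 and Proz did not. Among the other genes of both cascades, 0 of 25 complement genes and 0 of 23 coagulation genes were called by limma.

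Comparisons across slides used the 13991 probe sequences present on both designs, among them probes of 32 of the 41 genes. C1s, Masp2, C8b, C8g, Cfi, Clu, Klkb1, Kng1 and F2 had none. The 75th percentile was taken over the shared probes, so levels from here on are not on the scale of the levels above.

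Against Lin- BM cells, 29 of the 32 genes were called higher at 5 months and F13a1 lower. In primary hepatocytes 29 were called higher and F13a1, Cfd and Cfp lower. The call of Cfd (-2.68) was lost with normexp (-0.35, adjusted p = 0.338), with the methods' t-test and without 1 primary array (adjusted p = 0.0501). That of Cfp (-2.23) was lost with the methods' t-test, without 1 primary array (-1.38, adjusted p = 0.132) and without either Lin- array (adjusted p = 0.0862 and 0.0998). Over all 9227 genes, 29.3% were called higher and 37.7% lower at 5 months, and 29.3% and 38.1% in primary hepatocytes. The median difference was 10.49 at 5 months and 10.19 in primary hepatocytes, against -0.30 and -0.29 over all genes (10.03 and 9.59 with genes not above background in 1 group at their bound). These comparisons share the Lin- arrays and are given side by side for that reason only.

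Fgg was at least 49370-fold higher than in Lin- BM cells at 5 months and at least 38290-fold higher in primary hepatocytes. Pros1 had the smallest called rise in both (4.27 and 3.95). F13a1 was at 2.96 and 2.83 in Lin- BM cells and above background on neither primary array, at least 467-fold lower. At 5 months it was at -4.47 on 1 array, well above background, and at -7.72 on the other, which was not. Its difference of -8.99 from Lin- BM cells was called (adjusted p = 2.26e-04). Cfd and Cfp at 5 months differed from Lin- BM cells by 1.11 and -0.91, neither of which passed the test (adjusted p = 0.194 and 0.285).

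The time points were then set against each other and against primary hepatocytes. At 1 month, C4bp was called higher than in primary hepatocytes and C9 and F7 lower, 3 of 32 genes (9.38%), where 16.7% of all genes were called (11.6% higher and 5.10% lower). From 1 to 5 months, C9, Cfd, C6, Plg and F7 were called higher and no gene lower, 5 of 32 (15.6%), against 17.1% of all genes (5.81% higher and 11.3% lower). With the main settings and both directions counted together, the share of called genes was below that of all genes in both comparisons. With normexp background correction it was above that of all genes in both. By direction, with the main settings, all 5 calls from 1 to 5 months were higher, 15.6% against 5.81% of all genes. Time and slide cannot be told apart here. The median difference was -0.26 between 1 month and primary hepatocytes (all genes 0.17), and 0.57 between 5 months and 1 month (all genes -0.14).

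**Figure D3:**
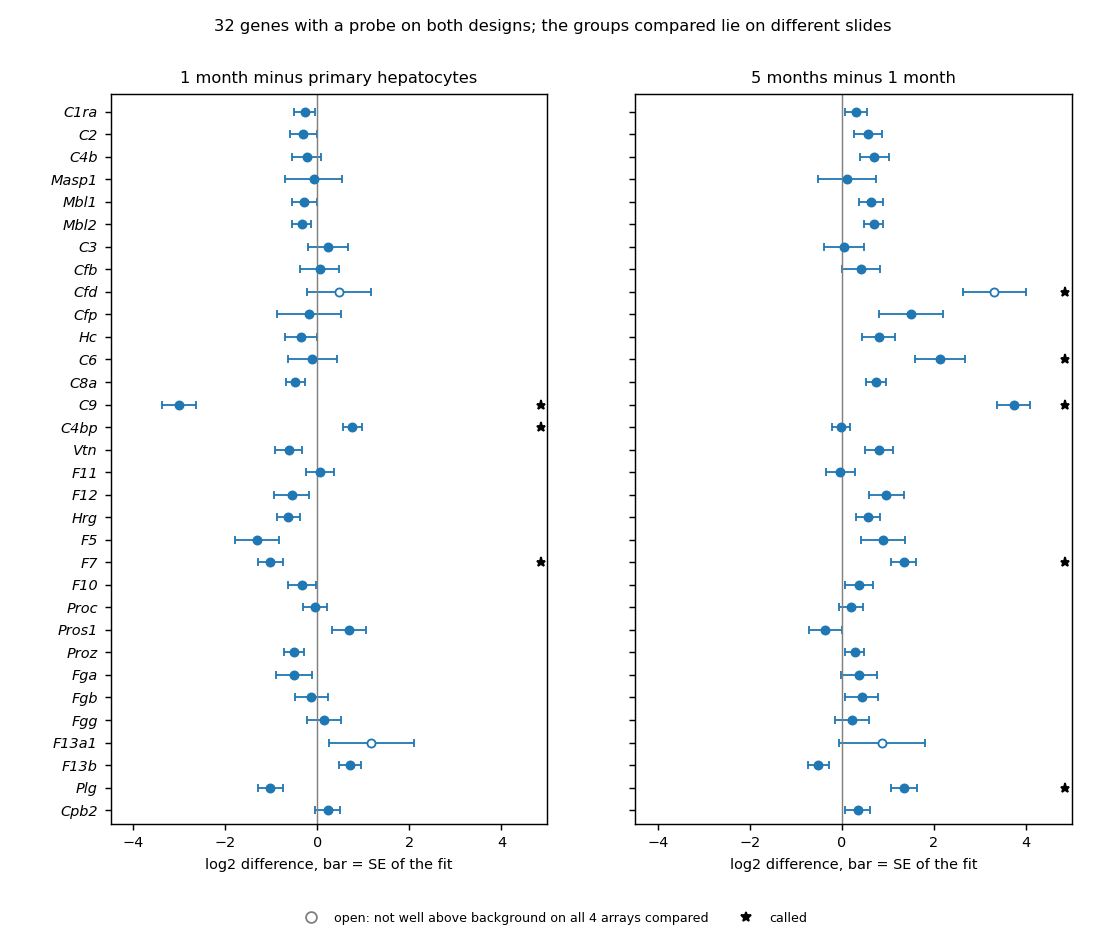
Log2 difference of 32 genes between BM-derived hepatocytes at 1 month and primary hepatocytes (left) and between 5 months and 1 month (right), with the SE of the fit as bars, stars for called genes and open points where not all 4 arrays compared were well above background. C9 lies farthest from 0 in both panels, at -3.01 and 3.74, and most other genes lie within 1 log2 unit of 0.

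C9, C6, Cfp and Cfd were read from the probes below, 60 bases each, shown because the results across slides rest on that sequence being the same on both designs. Positions are those of the array design on mm9, and the probe is written in the direction of the transcript. Those of C9, C6 and Cfp have at least 1 reading frame without a stop codon, and that of Cfd has none. Capitals are not used here, since the whole probe is what hybridizes.
C9, chr15:6433127-6433186: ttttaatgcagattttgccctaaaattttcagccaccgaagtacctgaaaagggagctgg
C6, chr15:4748363-4748422: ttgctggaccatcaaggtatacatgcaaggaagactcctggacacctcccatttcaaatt
Cfp, chrX:20502742-20502801: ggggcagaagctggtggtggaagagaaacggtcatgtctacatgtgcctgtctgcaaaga
Cfd, chr10:79355302-79355361: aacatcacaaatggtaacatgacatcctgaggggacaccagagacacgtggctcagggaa

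C9 set 1 month apart most. Its level was -7.91 and -8.00 in Lin- BM cells (not above background), -0.63 and -0.03 at 1 month, 3.36 and 3.45 at 5 months, and 2.22 and 3.15 in primary hepatocytes. No array at 1 month overlapped with the others. It was lower at 1 month than in primary hepatocytes by 8.08-fold (log2 difference -3.01, SE 0.36, adjusted p = 0.00477) and 13.3-fold lower than at 5 months (3.74, SE 0.36, adjusted p = 0.00303). Within their own slide, C9 was at 3.93 and 4.82 in primary hepatocytes and at 4.99 and 5.12 at 5 months, a difference of 0.68 (adjusted p = 0.486), named here after its values were seen.

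F7 and Plg, which encode the factor that starts the extrinsic pathway and the precursor of plasmin, lay between these extremes. F7 was at 2.08 and 1.58 at 1 month, 3.10 and 3.24 at 5 months, and 2.95 and 2.76 in primary hepatocytes. Its difference was 1.34 between 5 months and 1 month (SE 0.27, adjusted p = 0.0229) and -1.03 between 1 month and primary hepatocytes (adjusted p = 0.0491). The second of these calls was lost on leaving out any 1 of the 6 hepatocyte arrays in the fit (adjusted p = 0.0708 to 0.225). Plg was at 6.09 and 5.78 at 1 month and at 7.30 and 7.27 at 5 months, a difference of 1.35 (SE 0.28, adjusted p = 0.0235). For both genes the arrays of 1 month lay below all arrays of the other hepatocyte groups.

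C6 was at -0.47 and 0.70 at 1 month and at 2.26 and 2.23 at 5 months (2.13, SE 0.54, adjusted p = 0.0418). That call was lost with quantile normalization (2.07, adjusted p = 0.0586) and with the methods' t-test. Cfd was above background on neither 1-month array (-5.89 and -5.78) and was at -2.72 and -2.32 at 5 months, at least 9.54-fold higher (adjusted p = 0.024). With normexp background correction the difference of Cfd was 0.38 and was not called (adjusted p = 0.337). Cfp was at -0.85 and 0.90 at 1 month and at 1.56 and 1.50 at 5 months, a difference of 1.50 that did not pass the test (adjusted p = 0.181). C4bp was higher at 1 month (7.18 on each array) than in primary hepatocytes (6.39 and 6.44) by 0.76 (adjusted p = 0.048), and was not called with the 75th percentile over all probes (0.49, adjusted p = 0.156). That call too was lost without any 1 of the 6 hepatocyte arrays (adjusted p = 0.0948 to 0.181). Between the time points, the call of F7 was lost on leaving out any of 3 of the 4 arrays and those of Cfd, C6 and Plg on leaving out any of the 4, whereas that of C9 stood each time.

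**Figure D4:**
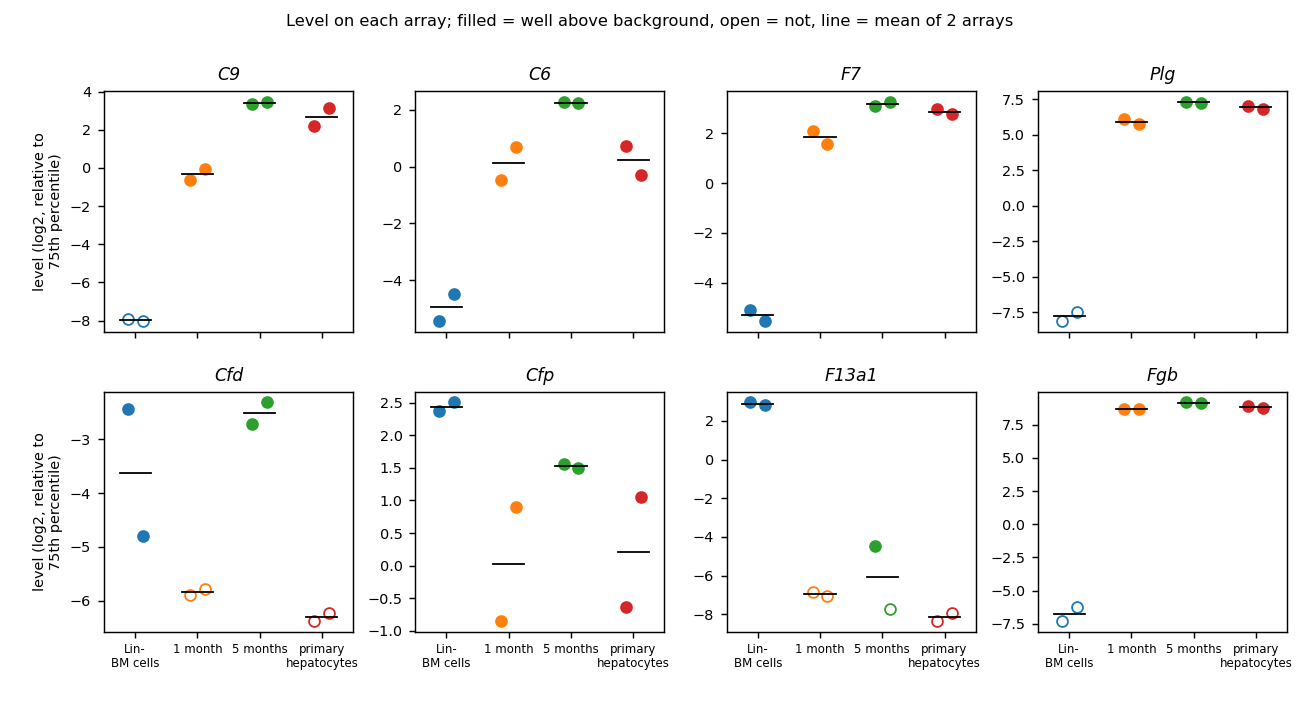
Level of 8 genes on each of the 8 arrays (y axis, log2 signal relative to the 75th percentile of the shared probes, a separate scale per gene), with filled points for spots well above background, open points for those that were not and a line at the mean of 2 arrays. The 1-month arrays of C9 lie at -0.63 and -0.03, below both other hepatocyte groups, and Fgb, shown as a gene of the common pattern, is near 9 in all hepatocyte groups.

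Among genes detected on each of the 4 arrays, F5 came after C9 below 0 at 1 month against primary hepatocytes, and F13b and Pros1 after C4bp above 0. F5, the cofactor of factor Xa, was at 1.70 and 1.32 at 1 month and at 2.71 and 2.95 in primary hepatocytes (-1.32, adjusted p = 0.111). It passed the test with normexp (-1.17, adjusted p = 0.0086). The difference stayed at -1.32 without either Lin- array. These arrays enter only the spread that all groups share in the fit, so that the test moved while the difference did not. F13b and Pros1 were higher at 1 month than in primary hepatocytes by 0.71 and 0.68 and lower at 5 months than at 1 month by 0.51 and 0.36. None of these differences of F13b and Pros1 passed the test. The fibrinogen genes differed by -0.51 to 0.44 in these 2 comparisons.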

How the data were processed

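RNA was hybridized to 8 single-colour Agilent arrays of 2 designs. The authors deposited the Feature Extraction 11.5.1.1 output, with background-subtracted intensities per spot, and log2 values shifted to the 75th percentile in GeneSpring GX. The deposited log2 values agreed within 0.02 with those made here for at least 99.77% of the probes.

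Here the intensities were taken to log2 and the 75th percentile of each array was subtracted. Outlier spots were dropped (6 to 152 per array; 0 were saturated), spots of a probe averaged, and probes kept if well above background on each array of 1 group or more. Each gene was read from its brightest probe. Groups on 1 slide were compared on all probes, others on the 13991 shared sequences, of which the designs name 2044 differently (named here through RefSeq accessions, GRCm38). Limma 3.58.1 (R 4.3.3) was fitted with Benjamini-Hochberg adjustment over all genes, after tests on simulated data, and Python 3.11.15 made tables and figures. The number of arrays limits precision: the smallest two-sided p of an exact permutation test at this size is 0.33. Background limits are, per array, the higher of the probe's signal and the lowest among probes well above background.

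The genes, lists and tests were chosen with earlier results of these data known. Any gene could be named for 1 month against Lin- BM cells. Elsewhere called genes and the 3 largest differences in each direction among genes detected on every array of the comparison were named, and of other cascade genes 3 each way, apart from 1 result that is not reported here. Alternatives were quantile normalization, normexp background correction (offset 50), other filters on dim probes, the mean of all probes, the methods' t-test, the authors' values, the percentile over all probes, all 8 arrays, slide as a block, and leaving out each array.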

Additional observations from a re-analysis of the deposited data

Results flagged for a closer look

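The change against Lin- BM cells differed between the time points for 5 of the 32 genes with a shared probe (15.6%). Of all genes 17.1% were called, 5.81% of them higher. This is the limma comparison of 5 months minus 1 month given above, since the Lin- BM arrays cancel. The difference was 3.74 on the log2 scale for C9, 3.32 for Cfd, 2.13 for C6, 1.35 for Plg and 1.34 for F7. Each was higher on both arrays at 5 months than on either array at 1 month. Cfd was above background on neither 1-month array, so that only a bound holds for it (at least 9.54-fold). With normexp its difference was 0.38. Of the 5 calls, only that of C9 stood on leaving out each array, as given above. The time points lie on different slides and designs, so time and slide cannot be told apart.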

How the results depend on the processing

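No paired analysis was possible because the groups compared share at most 1 replicate number, and these numbers name arrays. Counts of called genes are given as higher/lower pairs only where they moved by over 1.5 times. Restricting the fits to probes well above background on all arrays left 21, 39, 15, 15, 15 and 15 of the genes to test. It gave 20 higher and 1 lower at 1 month against Lin- BM cells, 0 higher at 5 months against primary hepatocytes, 14 higher and 0 lower at 5 months against Lin- BM cells, and 14 higher and 1 lower for primary hepatocytes against them. For 1 month against primary hepatocytes it gave 0 higher and 1 lower, and for 5 months against 1 month 2 higher. Fewer genes entered these fits. Over all genes the higher and lower counts were 7269 and 4831 of 21135 at 1 month against Lin- BM cells. At 5 months against primary hepatocytes they were 28 and 19 of 18265. Across slides, of 6320 genes, they were 2002 and 2139 at 5 months against Lin- BM cells. For primary hepatocytes against Lin- BM cells they were 2010 and 2122. They were 513 and 391 for 1 month against primary hepatocytes, and 518 and 697 for 5 months against 1 month.

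At 5 months against primary hepatocytes, the 1 call became 0 with normexp, without the filter on dim probes, with all 8 arrays, with slide as a block, and with the methods' t-test after Benjamini-Hochberg adjustment, and 2 with that test unadjusted. Of all 19933 genes, 73 were called higher with the main settings, 104 with normexp and 747 with the unadjusted t-test. Leaving out 1 array moved the count as well, for these genes and for all genes. The methods' t-test gave 1 lower gene, unadjusted and adjusted, at 1 month and in primary hepatocytes against Lin- BM cells, and 2 lower genes, unadjusted, at 5 months. Leaving out 1 array gave 1 to 3 lower genes for primary hepatocytes. Counts for 1 month against primary hepatocytes were 0 higher with the percentile over all probes and with the authors' values, 3 higher with the unadjusted t-test, 0 higher and 0 lower with the adjusted one, and 10 lower with normexp. Leaving out 1 array gave 0 to 1 higher and 1 to 4 lower. For 5 months against 1 month the higher genes were 13 with normexp, 11 with the unadjusted t-test, 0 with the adjusted one, and 1 to 6 without 1 array. Over all 9227 genes, 1 month against primary hepatocytes gave 1074 higher and 471 lower with the main settings. With normexp these counts were 1865 and 571, and with the unadjusted t-test 1180 and 594. For 5 months against 1 month, 536 of all genes were higher with the main settings and 705 with normexp. The unadjusted t-test gave 808 and the adjusted one 4. The cause of these shifts was not tested.

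Signs turned for Cfd at 1 month against Lin- BM cells with normexp (0.0792), for C1ra at 5 months against primary hepatocytes with all 8 arrays and with slide as a block (0.0307 in each), for Fga there with the mean of all probes (0.41) and without 1 array (-0.71 to 0.37), and for F11 at 5 months against 1 month with the percentile over all probes (0.20), the authors' values (0.20) and without 1 array (-0.22 to 0.16). None of these was called in either setting. Normexp moved the median of all genes at 1 month against Lin- BM cells from 0.065 to 0.37. Signal near background limits values such as those of Cfd and F13a1, which were above background in only some groups. Of 536 values of single genes under the alternatives at 1 month against Lin- BM cells, 522 kept direction and side of the threshold, and of those at 5 months against primary hepatocytes 80 of 95.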
